A study of Drosophila melanogaster with 3 samples.

Results

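The genes described here are the nuclear transfer RNA (tRNA) genes whose anticodon begins with cytidine, apart from those for lysine, glutamate, glutamine and initiator methionine. They were chosen by gene symbol from the families Val-CAC, Ala-CGC, Thr-CGT, Ser-CGA, Pro-CGG, Leu-CAG, Leu-CAA, Trp-CCA, Met-CAT and Arg-CCT, without use of any measured value. The rule found 51 genes among the 290 nuclear tRNA genes and 3546 noncoding genes of the authors' deposited table. Heads of adult male Drosophila melanogaster had been used whole for small RNA sequencing. Their neurons expressed Sxl-RAC, a variant named after Sex-lethal (Sxl), an RNA-binding protein of the sex determination pathway. Per the labels, flies of the Sxl-RAC group carried tub-GAL80ts, nSyb-GAL4 and UAS-SxlRAC, and the control carried nSyb-GAL4 and UAS-mCherry attP2, without a statement on whether it also carried tub-GAL80ts. nSyb-GAL4 is active in neurons, and GAL80ts is a temperature-sensitive repressor of GAL4. Sxl-RAC flies were raised at 18 °C and kept at 29 °C for 4 days after eclosion, when the repressor no longer acts. The labels used here list 3 Sxl-RAC samples and no control sample, so that the rearing of the controls is not given apart from their genotype. They do not say whether samples came from separate crosses, so p-values measure the spread between libraries, which may be technical. Heads hold glia, muscle, fat and cuticle beside neurons, so fewer cells of a type and less RNA per cell cannot be told apart. The table has no row for Sxl or for any protein-coding gene, and neither the transgene nor the tissue could be checked in it.

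A tRNA carries an amino acid to the ribosome and reads the codon with its anticodon. The first anticodon base, called the wobble base, faces the last codon base. A cytidine there pairs with G, so a tRNA with wobble cytidine reads codons that end in G, such as GUG for valine, UGG for tryptophan and AUG for methionine within a protein. A uridine at the same place can often read G as well, so that a second tRNA for the same amino acid may serve such codons, whereas tryptophan and internal methionine depend on the wobble-cytidine tRNA alone. RNA polymerase III makes the precursors from promoter elements inside the gene, RNase P trims their leading end, and introns, where present, are spliced out before the amino acid is attached. The study's title concerns a role of Sxl in tRNA synthesis by this polymerase in male neurons.

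The table holds the authors' DESeq2 comparison and no value per sample. Each noncoding class had been scaled by itself, and all tRNA values below are therefore relative to the tRNA genes as a class. The mean count is the normalised read count averaged over all libraries. A read adds the same amount to the mean count of any gene in its library, and from the low mean counts the reads per library could be worked back. The tRNA genes resolved into 6 libraries, 3 per group, whose size factors differed by up to 3.51 times. From deepest to shallowest, these were 2.19, 1.16 and 0.82 in control and 0.96, 0.82 and 0.62 in Sxl-RAC libraries. Depth therefore differed between the groups and was lower in Sxl-RAC libraries at each rank. For all 88 genes in the check, this division of the libraries gave the authors' deposited log2 fold changes when the same model was fitted again, and the next best division did so for 1. In this way reads per library were obtained for 39 of the 51 genes, namely 31 with a mean count under 10 and 8 with a mean count from 10 to 100. Another 10 had a mean count above 100, where no solution was sought, and 2 had no reads. The libraries carry no replicate number, and they are listed below in order of depth within a group, deepest first.

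In levels, the families fell into a measured and a barely detected set. Pro-CGG and Val-CAC were the most abundant, with summed mean counts of 3889 and 1932 per 100 bases of gene, followed by Ala-CGC at 294 and Arg-CCT at 200, all on the tRNA scale. Trp-CCA reached 46.4 per 100 bases and Met-CAT 25.2, and the remaining families lay between 3.37 for Thr-CGT and 11.8 for Ser-CGA. Leu-CAA was at 8.70 per 100 gene bases, below Leu-CAG at 9.91, and at 13.01 per 100 exon bases, above both Leu-CAG and Ser-CGA. Altogether 18 genes had a mean count of at least 10, 31 had fewer reads, and no read was assigned to tRNA:Leu-CAG-1-3 or tRNA:Trp-CCA-1-2. The 51 genes held 0.81% of the mean counts of nuclear tRNA genes, against 85.4% for the 34 genes of the other wobble-cytidine families Lys-CTT, Glu-CTC and Gln-CTG.

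**Figure D1:**
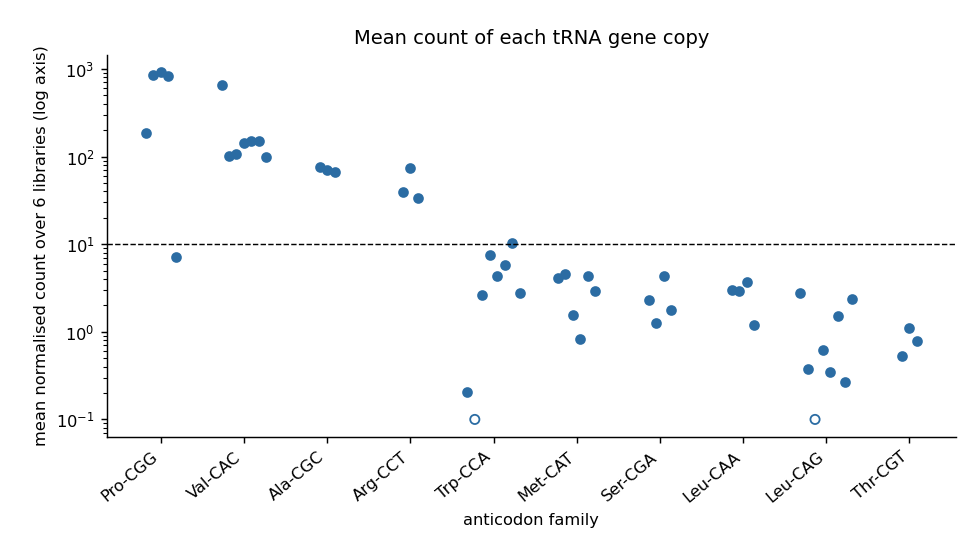
Mean normalised count over 6 libraries (log axis) of each gene copy, grouped by anticodon family. Points are gene copies, the dashed line marks a mean count of 10, and the 2 open points, drawn at the foot of the axis, are copies with no reads. Pro-CGG, Val-CAC, Ala-CGC and Arg-CCT lie above the line except for Pro-CGG-3-1, and the other families lie below it except for Trp-CCA-2-5.

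Gene length followed the same split in part. The 16 Leu-CAA, Leu-CAG and Ser-CGA genes are 82 to 127 bases long. Leucine and serine tRNAs have a long variable arm, and the Leu-CAA genes, at 121 to 127 bases, also include an intron. None of the 16 had a mean count above 4.36. This was shared with the 26 leucine and serine genes that have another wobble base, where the highest mean count was 9.81. The remaining 35 wobble-cytidine genes are 72 or 73 bases long, and 18 of them reached a mean count of 10. The Leu-CAA genes are the only ones of the 51 with 2 annotated exons, and their 83 exon bases are interrupted by an intron. The short Thr-CGT and Met-CAT genes were as poorly covered as the long ones, with highest mean counts of 1.12 and 4.58.

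Among tRNAs for the same amino acid, the wobble-cytidine genes held very unequal parts of the summed mean count per length. Val-CAC made up 86.8% of valine, with Val-TAC at 12.2% and Val-AAC at 1.0%. Arg-CCT, with 3 copies, made up 76.1% of arginine, although Arg-ACG and Arg-TCG have 10 copies each. Pro-CGG made up 35.4% of proline, below Pro-TGG at 58.4%. Ala-CGC made up 15.4% of alanine, where Ala-AGC held 79.3%. In leucine the largest part, 42.6%, belonged to the 2 Leu-TAG genes, with Leu-CAG at 20.0% and Leu-CAA at 17.5%. With the intron left out of the length, their order turned, to 18.4% for Leu-CAG and 24.1% for Leu-CAA. These parts describe counted small RNA reads and not the pool of charged tRNA in the cell.

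The copies lie on chromosome arms 2L (2 genes), 2R (18), 3L (13) and 3R (12) and on X (6), by Ensembl annotation of build BDGP6.54. Another nuclear tRNA gene lay within 1000 bases of 30 of them. No other gene overlapped 30 of them, and 21 lay in a protein-coding gene, all in introns except tRNA:Pro-CGG-2-3, which overlaps an exon of not on the opposite strand. The 3 Ala-CGC copies sit together in an intron of gol on the opposite strand (2R, 25076005 to 25077119). The 3 Thr-CGT copies form a cluster between genes (3R, 20890698 to 20891729). The authors' build is not given in the sources used here, so these positions are those of the annotation.

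In the authors' deposited table, 17 of the 51 genes had an adjusted p, and 1 of these, tRNA:Arg-CCT-1-2, was called at an adjusted p under 0.05, higher in Sxl-RAC heads. That is 5.88% of the 17, where 5.14% of all genes with an adjusted p were called and 21.2% of nuclear tRNA genes. Calls in the higher direction alone were 3.37% of all genes and 14.6% of nuclear tRNA genes. The 20 nuclear tRNA genes called higher included all 13 copies of a single family, Lys-CTT. Outside the families described here, 28 of 120 nuclear tRNA genes (23.3%) were called. The other 16 genes had adjusted p of at least 0.171, by the authors' DESeq2 test. Taking the 18 genes whose mean count reached 10, their median log2 fold change was -0.02, from -0.32 to 0.71, with 8 above 0. The 123 other nuclear tRNA genes above that count had a median of -0.04, from -0.80 to 0.59, with 43 above 0. The median standard error was 0.21 for the 18 genes and 0.10 for the 123 others.

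**Figure D2:**
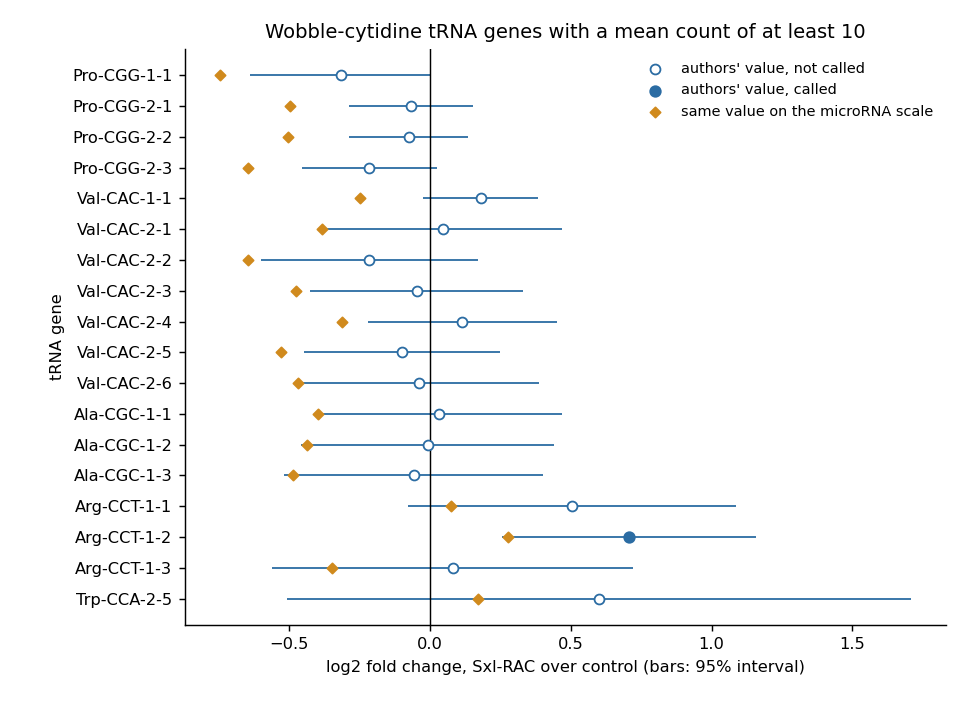
Log2 fold change of Sxl-RAC over control for the 18 genes whose mean count reached 10, as deposited by the authors (circles, filled where called) with the 95% interval from their standard error (bars). Diamonds give the same value moved to the scale of the microRNA genes. The interval leaves out 0 for Arg-CCT-1-2 only, and 3 diamonds lie above 0.

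The direction of the whole group depended on the scale. Moving the tRNA genes onto the scale of the microRNA genes adds -0.43 to each log2 fold change, by the recovered size factors of both classes. On that scale the median of the 18 genes became -0.45, with 3 above 0, and 8 of 17 passed an adjusted p of 0.05, all lower, namely 4 Pro-CGG genes and 4 Val-CAC genes. The same held for nuclear tRNA genes at large, of which 65.0% passed as lower there, and tRNA:Arg-CCT-1-2 no longer passed. Differences between tRNA genes are the same on both scales. The added -0.43 was taken as exact and the authors' standard errors were kept, so adjusted p on the microRNA scale leave out its error. Counts of single libraries were not moved to that scale, and whether groups overlap is given below on the tRNA scale only.

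Arg-CCT reads the AGG codon of arginine. Its 3 copies carry the same first number in their symbols, which in this naming scheme groups genes with the same mature sequence. Reads that match several copies cannot be placed with certainty, and how the authors assigned them is not given in the sources used here, so single copies are uncertain. tRNA:Arg-CCT-1-2 (2R, 20000296 to 20000368, minus strand, between genes) had 125, 57 and 51 reads in control and 101, 74 and 47 reads in Sxl-RAC heads. Divided by size factors these were 57.0, 49.1 and 62.2 in control and 106, 90.5 and 75.3 in Sxl-RAC heads. On the tRNA scale, every Sxl-RAC library was above every control library, with means of 56.1 ± 6.6 and 90.5 ± 15.2 (SD, n = 3 libraries each).

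The authors' deposited table gave this gene a log2 fold change of 0.71 (standard error 0.23, DESeq2 adjusted p 0.0151). The call depended on single libraries. Refitted without each library in turn, the log2 fold change ran from 0.58 to 0.81. Without the deepest Sxl-RAC library it was 0.58 and the adjusted p of the refitted negative binomial model was 0.102, and without the second control library by depth it was 0.63 with an adjusted p of 0.0625. Without any of the remaining libraries the gene still passed. On the microRNA scale the value was 0.28, with an adjusted p of 0.272 from a Wald test that kept the authors' standard error.

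The other Arg-CCT copies were lower in count. tRNA:Arg-CCT-1-1 (2L, 6799744 to 6799816, plus strand) had normalised counts of 30.6, 31.0 and 36.6 in control and 50.2, 45.3 and 41.6 in Sxl-RAC libraries. These groups did not overlap either, and the authors' deposited table gave 0.51 on the log2 scale (standard error 0.30), which did not pass in their DESeq2 test (adjusted p 0.232). tRNA:Arg-CCT-1-3 (2R, 20000819 to 20000891, plus strand), which lies 450 bases from the called copy in the opposite orientation, had 30.6, 39.7 and 26.9 in control and 36.6, 36.7 and 28.8 in Sxl-RAC libraries. Here the groups overlapped, and the authors' deposited log2 fold change was 0.08 (standard error 0.33). The difference of 0.63 between the called copy and its neighbour compares with a standard error of 0.40 if the copies are taken as independent.

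Summed over the 3 copies, Arg-CCT had 118, 120 and 126 normalised counts in control and 193, 173 and 146 in Sxl-RAC heads. The groups did not overlap, and the sum does not depend on how the counted reads were divided among copies. The log2 ratio of the means was 0.49 on the tRNA scale and 0.06 on the microRNA scale.

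**Figure D3:**
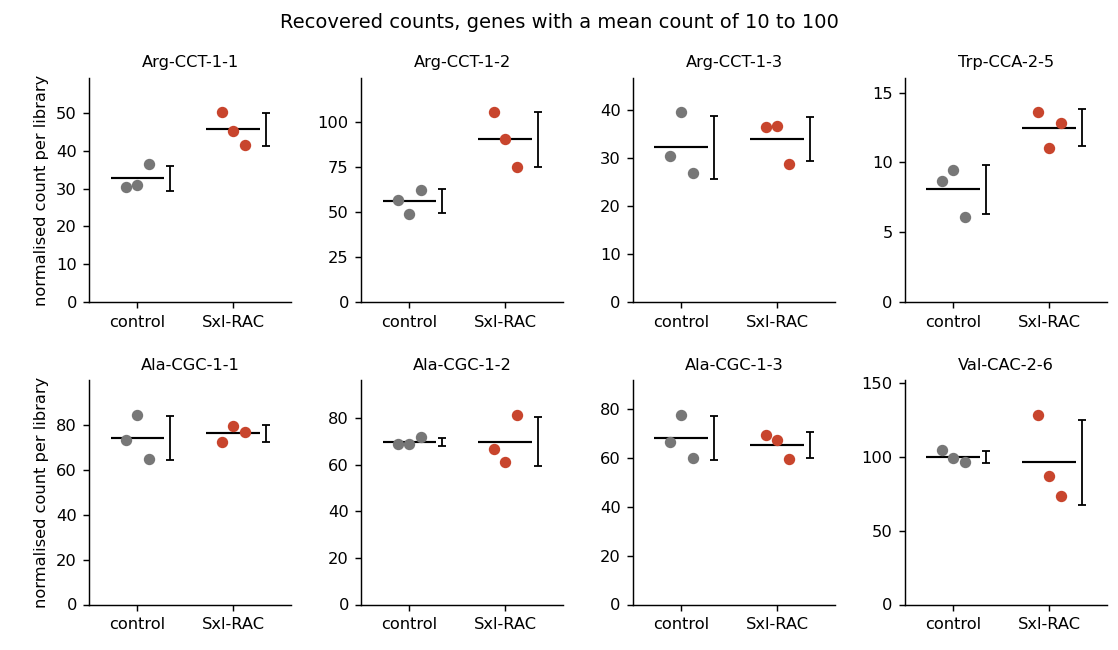
Normalised count per library (from 0, a separate axis per gene) of the 8 genes with a mean count of 10 to 100, in 3 control and 3 Sxl-RAC libraries. Points are libraries from deepest to shallowest, lines are means and bars at the side are 1 SD. On the tRNA scale, the groups do not overlap for Arg-CCT-1-1, Arg-CCT-1-2 and Trp-CCA-2-5, and overlap in the other 5 genes.

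Ala-CGC reads the GCG codon of alanine, and none of its 3 copies passed the test. Summed over its 3 copies it had 208, 231 and 196 normalised counts in control and 208, 208 and 218 in Sxl-RAC libraries. All Sxl-RAC values lay inside the range of the controls, with means of 212 ± 17.5 and 211 ± 5.6 (SD, n = 3 libraries each). In the authors' deposited table the copies were at 0.03, -0.01 and -0.06 on the log2 scale (standard errors 0.22 to 0.24), and 95% intervals reached from -0.52 to 0.47. The 12 Ala-AGC genes, which share the amino acid, had a median of -0.36 from -0.46 to -0.09, and none of them was called in the authors' deposited table.

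Val-CAC reads the GUG codon of valine, and none of its 7 genes, all on 3R, passed the test at mean counts from 98.2 to 660. The most abundant, tRNA:Val-CAC-1-1 (3R, 17617761 to 17617833, plus strand, between genes), was at 0.18 on the log2 scale by the authors' deposited table (standard error 0.10, DESeq2 adjusted p 0.231). With 3 libraries per group this corresponds to 619 normalised counts in control and 701 in Sxl-RAC heads. The 6 Val-CAC-2 copies had log2 fold changes in that table from -0.22 (tRNA:Val-CAC-2-2) to 0.12 (tRNA:Val-CAC-2-4). Their standard deviation across copies was 0.12, below the authors' median standard error of 0.19 for a single copy. The copies share libraries and may share reads, so these values measure unlike spreads and the copies are not replicates.

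tRNA:Val-CAC-2-6 (3R, 19790122 to 19790194, plus strand) was the least abundant Val-CAC copy and the only one of the 7 with recovered reads. Its normalised counts were 104, 99.1 and 96.4 in control and 129, 86.9 and 73.7 in Sxl-RAC libraries. The Sxl-RAC libraries surrounded the controls on both sides, and their SD of 28.7 was larger than the 4.1 of the controls. The authors' deposited log2 fold change was -0.04 (standard error 0.22), and the refit moved to -0.32 without the deepest Sxl-RAC library.

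Pro-CGG reads the CCG codon of proline, and its 4 copies with a mean count of at least 10 all had values below 0 in the authors' deposited table, none of which passed. Values for the 3 copies of Pro-CGG-2 were -0.07 for tRNA:Pro-CGG-2-1, -0.08 for tRNA:Pro-CGG-2-2 and -0.22 for tRNA:Pro-CGG-2-3, with standard errors from 0.11 to 0.12 and mean counts from 840 to 922. tRNA:Pro-CGG-1-1 (X, 20025099 to 20025170, in an intron of Dop2R on the opposite strand) had the lowest value of the 18 genes, -0.32, with a standard error of 0.16 (authors' DESeq2 adjusted p 0.171), and its mean count was 186. The 2 other proline families, Pro-AGG and Pro-TGG, had medians of -0.13 and -0.16, beside -0.15 for Pro-CGG, and no proline tRNA gene was called. The fifth copy, tRNA:Pro-CGG-3-1, had 18, 10 and 2 reads in control and 6, 8 and 5 in Sxl-RAC libraries and a log2 fold change of 0.25 (standard error 0.69).

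**Figure D4:**
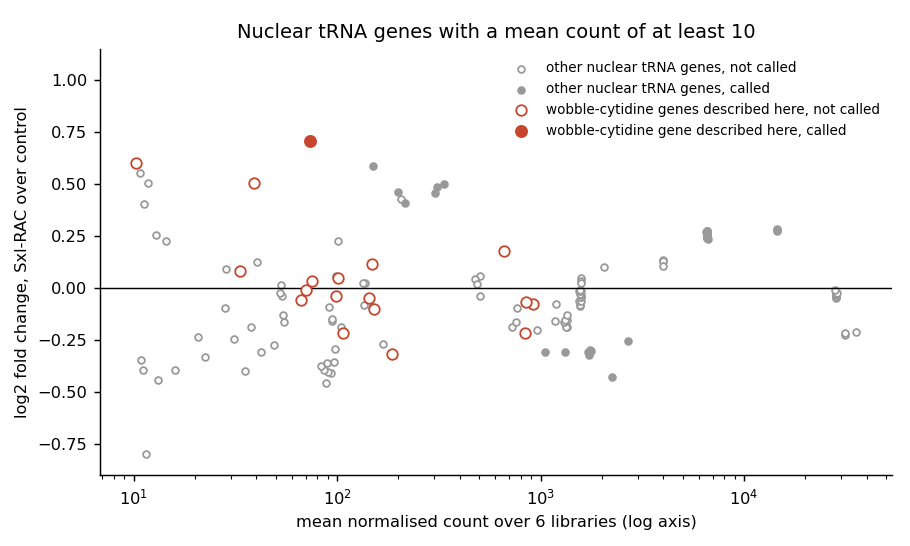
Log2 fold change (Sxl-RAC over control, authors' values) against mean normalised count (log axis) for the 141 nuclear tRNA genes whose mean count reached 10. Large points are the 18 wobble-cytidine genes described here and small points the 123 others, filled where called. The called Arg-CCT-1-2 has the highest value of all 141, 0.71, at a mean count of 73.3.

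Trp-CCA reads UGG, the single codon of tryptophan, and 7 of its 8 copies had reads. tRNA:Trp-CCA-2-5 (2R, 21181284 to 21181355, plus strand, in an intron of Pu on the same strand) was the single copy above a mean count of 10, and lies below the authors' filter for an adjusted p, which in the tRNA class begins at 11.3. It had 19, 11 and 5 reads in control and 13, 9 and 8 in Sxl-RAC libraries, or 8.67, 9.48 and 6.10 against 13.6, 11.01 and 12.8 after division by size factors. The groups did not overlap, while the authors' deposited table put the difference at 0.60 on the log2 scale (standard error 0.57, unadjusted p 0.288 by DESeq2).

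Summed over its copies, Trp-CCA had 28.7, 29.3 and 26.8 normalised counts in control and 42.9, 34.3 and 38.4 in Sxl-RAC libraries. The groups did not overlap, with means of 28.3 ± 1.3 and 38.5 ± 4.3 (SD, n = 3 libraries each). The log2 ratio was 0.45 on the tRNA scale and 0.02 on the microRNA scale. The sums rest on 41 or fewer reads in each library but the deepest, which had 63.

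Met-CAT is the elongator tRNA, which inserts methionine within proteins, and is separate from the initiator. Its 6 copies had 10.03, 20.7 and 14.6 summed normalised counts in control and 16.8, 25.7 and 22.4 in Sxl-RAC libraries, and the groups overlapped. Of the copies, tRNA:Met-CAT-1-2 (2R, 11660563 to 11660635, minus strand, in an intron of Roc2 on the same strand) had the highest mean count, 4.58. It had 4, 6 and 1 reads in control and 6, 8 and 2 in Sxl-RAC libraries, and was at 1.26 on the log2 scale in the authors' deposited table (standard error 0.90).

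The leucine, serine and threonine families were near the detection limit. Leu-CAA had 6.84, 6.03 and 15.9 summed normalised counts in control and 9.43, 12.2 and 14.4 in Sxl-RAC libraries. Leu-CAG had 7.76, 11.2 and 4.88 against 7.32, 8.57 and 9.60, and Ser-CGA had 9.58, 6.04 and 10.98 against 8.38, 13.5 and 9.60. In these 3 families the control libraries differed among themselves by more than the group means did, and the groups overlapped.

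Thr-CGT had the fewest reads, 2, 2 and 1 in control and 6, 1 and 2 in Sxl-RAC libraries over its 3 copies. The value of tRNA:Thr-CGT-1-1 in the authors' deposited table, 2.92 on the log2 scale (standard error 2.79), came from 3 reads in a single Sxl-RAC library and none elsewhere. tRNA:Thr-CGT-1-2, the copy with the highest mean count, had 1 read in control and 4 in Sxl-RAC libraries. No difference was detectable at this depth.

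**Figure D5:**
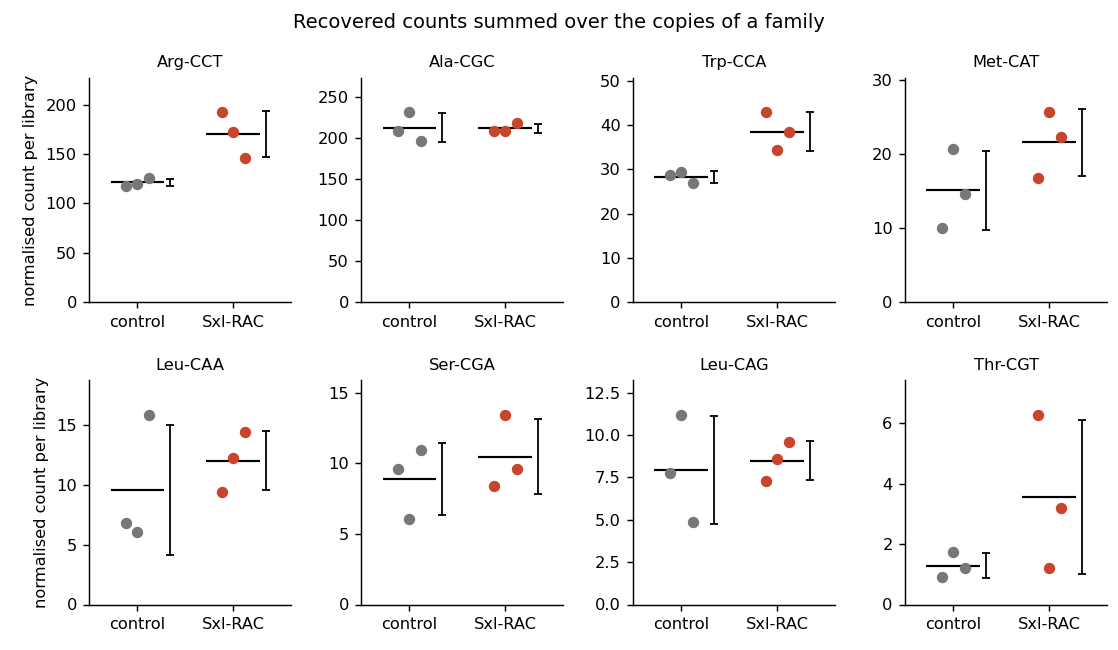
Normalised count per library (from 0, a separate axis per family), summed over all copies of a family, for the 8 families whose reads were recovered in full, in 3 control and 3 Sxl-RAC libraries. Points are libraries from deepest to shallowest, lines are means and bars at the side are 1 SD. On the tRNA scale, the groups do not overlap for Arg-CCT and Trp-CCA, where Sxl-RAC is higher, and overlap in the other 6 families. Both of these families hold copies that do not overlap by themselves. Sums were not made for single families of the other nuclear tRNA genes, so no share over them is given beside this count. Whether groups of other families also do not overlap, in either direction, was not examined.

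Across copies with recovered reads, groups that do not overlap were found for 3 of the 8 genes with a mean count of 10 to 100, all higher in Sxl-RAC heads, where 7.32% of 41 nuclear tRNA genes in that range were of this kind. Those 3 genes are the same as make up the 7.32%. None of the 33 genes from other families was higher without overlap, while 6 of them (18.2%) were lower. The range leaves out more abundant genes, and Lys-CTT, with a median mean count of 6584, had 13 of 13 copies called higher. Among the 3 genes, tRNA:Arg-CCT-1-1 and tRNA:Arg-CCT-1-2 have the same mature sequence by name and may share reads. The other, tRNA:Trp-CCA-2-5, had an unadjusted p of 0.288 in the authors' DESeq2 test. In the 31 genes with fewer reads, tRNA:Leu-CAA-2-2 alone had groups that did not overlap, with Sxl-RAC higher, against 2.21% of 136 nuclear tRNA genes that were higher in this way and 3.68% that were lower. In the 105 of those genes from other families the shares were 1.9% and 4.76%. Its groups touched at 3.66 in control and 3.67 in Sxl-RAC libraries. All 31 log2 fold changes were within 2 standard errors of 0, and 26 were within 1.

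Summed over the 31 genes with a mean count under 10, normalised counts were 63.4, 74.1 and 70.8 in control and 83.7, 94.2 and 92.8 in Sxl-RAC libraries. The groups did not overlap, and the log2 ratio was 0.38. Over the 105 genes from other families the sums were 311, 328 and 298 in control and 330, 338 and 368 in Sxl-RAC libraries, a log2 ratio of 0.14. These groups did not overlap either, with 328.42 in the highest control and 329.68 in the lowest Sxl-RAC library. Moved to the microRNA scale these ratios became -0.05 and -0.29, so that the sign turned for the 31 genes and for the 105 others. The difference between the groups of genes, which no scale alters, was not tested, because the genes were summed with their values known.

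Other tRNA genes with the same wobble base or anticodon gave unlike values in the authors' deposited table. For Lys-CTT the median log2 fold change was 0.27 and every copy passed, 13 of 13. For Glu-CTC it was -0.04, and 0 of 13 passed. For Gln-CTG it was 0.19 over the 2 of 8 copies with a mean count of at least 10, and 0 of 2 passed. The 6 initiator methionine genes, which share the CAT anticodon with Met-CAT, had a median of -0.36 and no call in that table. Of the other noncoding RNAs linked to tRNA making or made by RNA polymerase III, none of 104 with an adjusted p was called, and 5 had an unadjusted p under 0.05 in the authors' DESeq2 test. These 5 were both 7SL RNA genes, at -0.45 and -0.42, and 3 of 96 genes for 5S rRNA. In the authors' deposited table, the RNA of RNase P was at 0.05 with a standard error of 0.46, on the scale of its own class.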

How the data were processed

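Small RNA libraries were made commercially from Trizol-extracted, DNase-treated RNA of heads, per the labels' protocols, which name a small RNA kit although the molecule is labelled as polyA RNA. The submitters' processing notes name Trim Galore 0.6.7, Bowtie2 2.5.3, featureCounts 2.0.8 and DESeq2 2.11.40.8, while counting rules, strand use, build and annotation are not given in the sources used here. The authors deposited, per the file headers, a base mean (a signal: read counts divided by size factors, averaged over all libraries), log2 values (the fold change and, in the next column, its standard error), the Wald score, a p-value and an adjusted p-value. The direction, Sxl-RAC over control, is that of the file's title. Benjamini-Hochberg adjustment within the tRNA class gave the deposited adjusted p of its 149 genes to within 0.189%.

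Symbols and positions came from Ensembl release 115 (BDGP6.54), which matched 3545 of 3546 rows. Sequences were not used here. Size factors were recovered by writing all mean counts under 0.95 of a class as sums of at most 11 whole reads. With 6 libraries, all 33 such values of the tRNA class and all 35 of the microRNA class could be written, and with 5 libraries 25 and 28. Reads of genes under a mean count of 10 followed from the mean count alone, in a single way for all 146. From 10 to 100, candidate reads also had to give the deposited standard error and log2 fold change (tolerance 1e-05) in a negative binomial model of 2 groups, and 50 of 54 genes had a single solution. For the 8 solved here the refit differed by at most 3.23e-07. On data simulated for 299 genes of the tRNA class, all 134 solved genes under 10 and all 51 from 10 to 100 were right. Refits without a library kept the recovered size factors, the gene's dispersion and the p-values of the other genes, and adjusted over the tRNA class. These steps used Python 3.11.15, NumPy 2.4.6, pandas 2.3.3 and SciPy 1.17.1.

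Called means an adjusted p under 0.05. Genes were named if called, if their mean count was at least 10, or if it was the highest of their family. The families, lists and alternatives were chosen with earlier results of these data known. Counts and sums cover counting error and spread between libraries only, and reads without molecular identifiers are not independent molecules. Beside the authors' test and these refits, no test was made on values per library.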

Additional observations from a re-analysis of the deposited data

How the results depend on the processing

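The single call was kept with a threshold of 0.1, with 1 adjustment over all genes of at least 10 mean counts, with no filter on low counts in the tRNA class and after centring on the median of nuclear tRNA genes. On the microRNA scale 8 genes passed in its place, the median of the 18 genes was -0.45, and family means were -0.44 for Val-CAC, -0.44 for Ala-CGC, -0.60 for Pro-CGG and 0.0012 for Arg-CCT. That scale adds -0.43 to every tRNA value by construction and leaves the standard errors as they were, without the error of the added value. Of the 18 genes whose mean count reached 10, those whose sign turned there were tRNA:Ala-CGC-1-1 (-0.40), tRNA:Arg-CCT-1-3 (-0.35), tRNA:Val-CAC-1-1 (-0.25), tRNA:Val-CAC-2-1 (-0.38) and tRNA:Val-CAC-2-4 (-0.31). Centring turned tRNA:Ala-CGC-1-2 (0.034) and tRNA:Val-CAC-2-6 (0.0045), both near 0 before. The median of the 18 genes was -0.07 with a minimum mean count of 100 and 0.12 over all genes with reads, and the Pro-CGG mean was -0.09 with its low copy included.

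Refits without each recovered library in turn, added after the data were seen, ran from 0.58 to 0.81 for tRNA:Arg-CCT-1-2, from 0.43 to 0.58 for tRNA:Arg-CCT-1-1, from -0.016 to 0.24 for tRNA:Arg-CCT-1-3, from 0.47 to 0.71 for tRNA:Trp-CCA-2-5, from -0.040 to 0.13 for tRNA:Ala-CGC-1-1, from -0.12 to 0.077 for tRNA:Ala-CGC-1-2, from -0.13 to 0.040 for tRNA:Ala-CGC-1-3 and from -0.32 to 0.11 for tRNA:Val-CAC-2-6. The 10 genes without recovered reads could not be refitted. No paired analysis was possible because the deposited comparison and the recovered libraries carry no replicate numbers.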
